A study of Homo sapiens with 8 samples.

Results

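Aldo-keto reductases are soluble enzymes that use NADPH to reduce the carbonyl group of sugars, lipid aldehydes, steroids, prostaglandins and drugs to an alcohol. Human cells carry several close copies of these genes in tandem clusters, among them AKR1C1 to AKR1C4 on chromosome 10, AKR1B1, AKR1B10 and AKR1B15 on chromosome 7, and AKR7A2 and AKR7A3 on chromosome 1. Several of them, above all AKR1B10 and AKR1C1 to AKR1C3, are known as targets of the oxidative stress factor NRF2 and are abundant in lung cancers with an active NRF2 pathway. The 10 aldo-keto reductase genes followed here were chosen by name, as the count rows with the symbols AKR1A1, AKR1B1, AKR1B10, AKR1B15, AKR1C1, AKR1C2, AKR1C3, AKR1C4, AKR7A2 and AKR7A3, out of 59050 genes listed.

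RNA was sequenced from 8 xenograft tumours grown from H2122, an established cell line of human lung cancer. In 4 tumours the cells were parental (genotype WT), and in the other 4 they carried a knockout of SMARCA4, which encodes the BRG1 motor of the SWI/SNF chromatin remodelling complex. All 8 tumours came from vehicle treatment. The host, and whether the knockout line was 1 clone or a pool, are not given in the sources used here. The depth was 19785922 to 23191698 gene counts in the parental libraries and 20662882 to 21981123 in those of the knockout. Expression is given as CPM, the read count relative to the TMM-scaled total of its library, as mean ± SD over 4 tumours, and a gene is called changed where edgeR's quasi-likelihood test gave a Benjamini-Hochberg adjusted p under 0.05 over 16219 tested genes. SMARCA4 itself fell from 220.4 ± 16.0 to 27.2 ± 3.90 CPM (log2 fold change -3.02, adjusted p = 1.45e-07).

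AKR1C1 and AKR1C2 are shown in sequence because they are the closest pair among the members and because their values moved in opposite directions. Their coding sequences differ at 19 of 969 bases (98.0% identity), and the last 186 coding bases, positions 784 to 969, are the same in both. The stretch in which they differ most, coding bases 103 to 162 in exon 2, is given below from the GENCODE 29 transcripts on GRCh38, 5′ to 3′ on the gene's strand. It lies at chr10:4965932-4965991 (+) in AKR1C1, at chr10:5001604-5001663 (-) in AKR1C2 and at chr10:5096428-5096487 (+) in AKR1C3. Capitals mark the bases of AKR1C1 and AKR1C2 that differ between these 2 genes (10 bases), and the bases of AKR1C3 that differ from AKR1C1 (7 bases).
AKR1C1: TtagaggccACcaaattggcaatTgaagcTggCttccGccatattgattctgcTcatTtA
AKR1C2: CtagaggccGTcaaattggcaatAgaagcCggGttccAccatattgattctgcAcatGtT
AKR1C3: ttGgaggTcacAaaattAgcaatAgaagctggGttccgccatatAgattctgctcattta
A read over this stretch tells the 2 genes apart, while a read within the last 186 coding bases cannot.

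The likeness extends upstream of both genes. In the RefSeq promoter table (GRCh38.p14), the 250 bases before the listed starts of AKR1C1 and AKR1C2 share 1 unbroken run of 245. AKR1C3 matches AKR1C1 there in 71.4% and AKR1C2 in 69.6% of alignment columns, where gaps count as differences. The part of this window that lies before the exons annotated there in GENCODE 29 is shown because it is the same in genes whose counts diverged. It covers chr10:4963165-4963252 (+, 88 bases) for AKR1C1 and chr10:5004024-5004107 (-, 84 bases) for AKR1C2, and capitals mark the bases with no match in the other gene.
AKR1C1: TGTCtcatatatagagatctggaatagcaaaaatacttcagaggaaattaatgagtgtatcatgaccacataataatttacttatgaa
AKR1C2: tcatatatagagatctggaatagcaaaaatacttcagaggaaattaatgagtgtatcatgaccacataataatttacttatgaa
AKR1C2 has further annotated starts upstream of this one, since its GENCODE extent reaches position 5018031.

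All 10 members had enough counts to be tested. Of these, 4 were called changed (AKR1C2 higher, and AKR1B10, AKR1C1 and AKR7A2 lower), against 27.0 percent of all tested genes, of which 13.0 percent were higher and 14.1 percent lower. With 10 genes, 4 calls are 40%, and nothing is read from that share alone. The log2 fold change was below 0 for 9 members, and the median of all 10 was -0.31 beside 0.0034 over all tested genes. The tumours of the 2 groups did not overlap for 3 members, AKR1C1, AKR1C2 and AKR7A2, where 29.3 percent of all tested genes had no overlap. Without parental tumour 2 the count of changed members rose to 7, with AKR1B1, AKR1C4 and AKR7A3 added. The count over all genes rose as well, from 4385 to 4721.

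**Figure D1:**
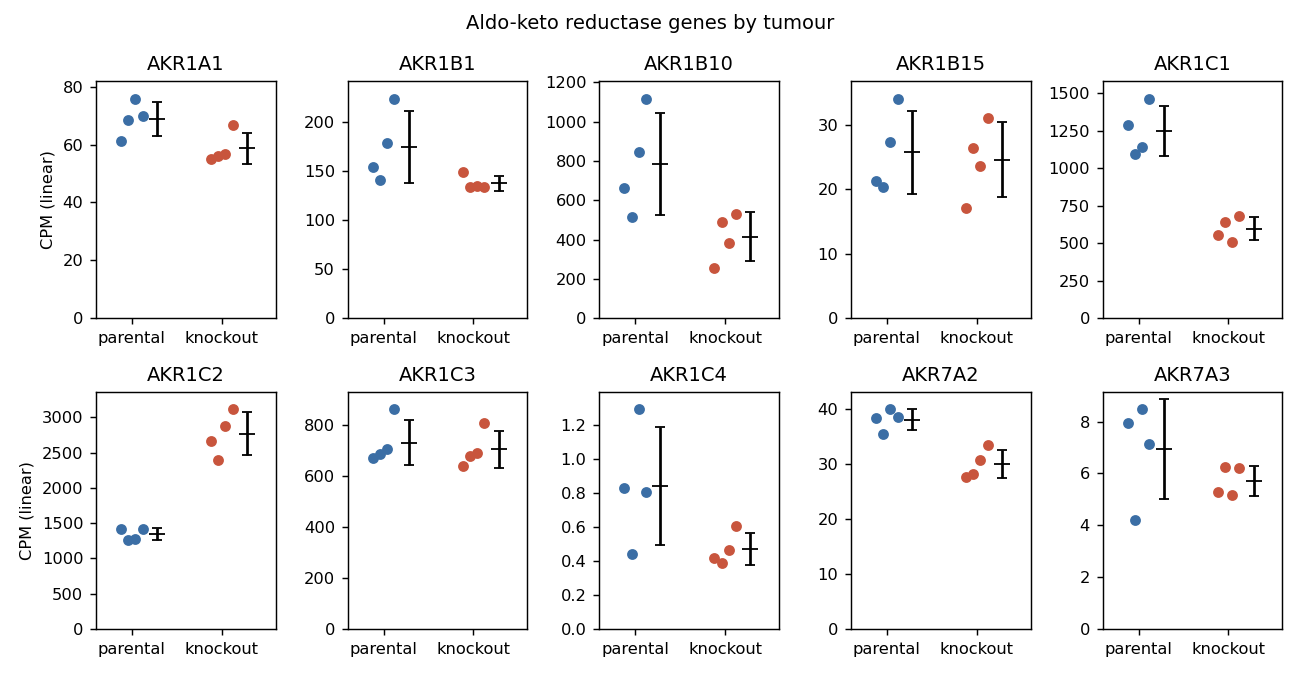
Expression of the 10 aldo-keto reductase genes in each tumour, in CPM on linear axes that start at 0. Each point is 1 tumour (replicates 1 to 4 from left to right, blue parental, red knockout), and the bar beside the points is the mean ± SD of 4 tumours. AKR1C1 and AKR7A2 are lower and AKR1C2 higher in every knockout tumour than in any parental tumour, while the groups overlap for the other members.

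The AKR1C genes encode hydroxysteroid dehydrogenases, which also reduce prostaglandins and lipid aldehydes. AKR1C1 is best known for inactivating progesterone through its 20-keto group. It lies at chr10:4963253-4983283 (+). Its expression was 1289, 1096, 1143 and 1466 CPM in parental tumours 1 to 4, and 558, 643, 509 and 679 CPM in knockout tumours 1 to 4. Every knockout tumour was below every parental tumour. AKR1C1 was 2.09-fold lower in the knockout, at 597 ± 77.8 CPM against 1249 ± 166 CPM in the parental group. The log2 fold change was -1.06 with an SE of 0.122 (adjusted p = 8.48e-05). This SE is the one implied by the F statistic of the edgeR test. Where a log2 fold change below carries an error, it is this SE. In tumour RNA, fewer cells that express a gene and less RNA per cell cannot be told apart.

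AKR1C2, a dehydrogenase that inactivates the androgen dihydrotestosterone, lies next to AKR1C1 on the opposite strand (chr10:4987400-5018031, -). Parental tumours 1 to 4 had 1418, 1268, 1281 and 1415 CPM of AKR1C2, and knockout tumours 1 to 4 had 2670.3, 2402, 2878 and 3115 CPM. Here every knockout tumour was above every parental tumour. AKR1C2 rose 2.06-fold, from 1346 ± 82.2 to 2766 ± 303 CPM (log2 fold change 1.04 ± 0.0986, adjusted p = 2.24e-05). The calls on AKR1C1 and AKR1C2 were kept under all 18 alternatives, with log2 fold changes from -1.13 to -0.98 and from 0.98 to 1.10.

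AKR1C3, which makes testosterone from androstenedione and reduces prostaglandins, lies at chr10:5035354-5107686 (+). Its values were 671, 689, 708 and 863 CPM in the parental tumours and 641, 681, 694 and 809 CPM in the knockout tumours. The groups overlapped almost fully, and tumour 4 was the highest of each. The log2 fold change of AKR1C3 was -0.05 ± 0.107 (adjusted p = 0.757), so a difference was not detectable beyond the spread between tumours. AKR1C4, the liver form at chr10:5195462-5218949 (+), was near the limit of detection, with 16, 9, 29 and 19 counts in the parental tumours and 9, 8, 10 and 13 in the knockout tumours. Its log2 fold change was -0.84 ± 0.350 (adjusted p = 0.102), and without parental tumour 2 it was -1.05 (adjusted p = 0.0308).

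The make-up of the AKR1C counts differed accordingly. AKR1C1 held 37.4% ± 1.49 of the 4 genes' counts in parental tumours and 14.7% ± 1.97 in knockout tumours, and AKR1C2 held 40.5% ± 1.89 and 67.9% ± 2.58. The share of AKR1C3 was 22.0% ± 1.46 and 17.3% ± 0.746. The ratio of AKR1C1 to AKR1C2 counts was 0.909, 0.865, 0.892 and 1.04 in the parental tumours and 0.209, 0.268, 0.177 and 0.218 in the knockout tumours. The lowest parental ratio was thus above the highest knockout ratio, and the group means were 0.926 and 0.218, 4.25 times apart.

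**Figure D2:**
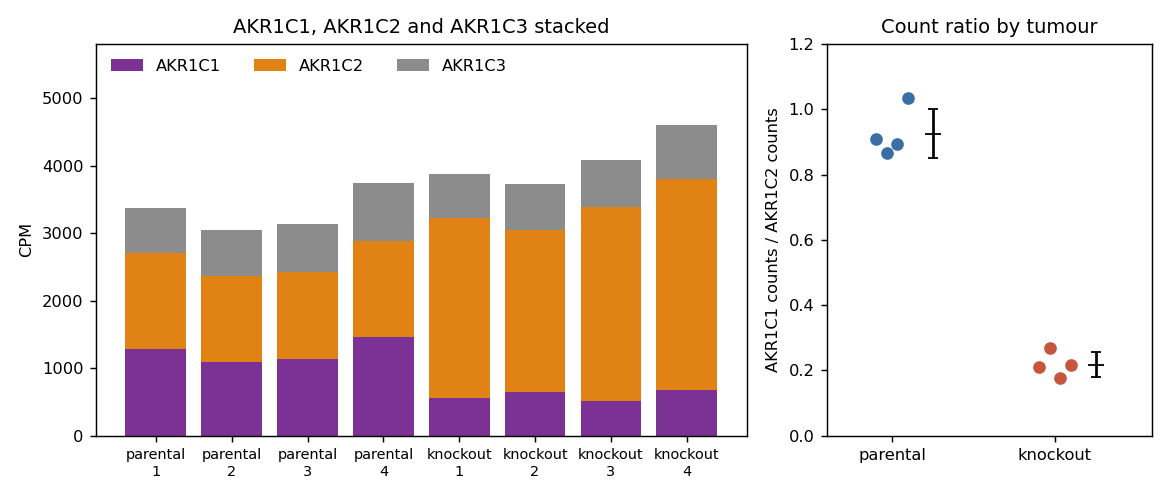
Left, CPM of AKR1C1, AKR1C2 and AKR1C3 stacked for each of the 8 tumours. Right, the ratio of AKR1C1 to AKR1C2 counts in each tumour (points) with the mean ± SD of 4 tumours; the parental ratios lie between 0.865 and 1.04 and the knockout ratios between 0.177 and 0.268.

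Reads from AKR1C1 and AKR1C2 can be assigned to the wrong copy or dropped, so the 2 separate levels are uncertain. Among all 100-base windows of the coding sequence, 79.3% of those of AKR1C1 and 73.6% of those of AKR1C2 have no identical copy in another aldo-keto reductase transcript, beside 90.2% for AKR1C3. For 50-base windows the shares are 45.7%, 42.9% and 77.0%. If up to 2 mismatches are allowed at 100 bases, they are 18.5%, 22.8% and 80%. These windows cover only the 969 coding bases of each gene, whereas the annotated exons total 8765 bases in AKR1C1 and 6461 in AKR1C2. Copies of the non-coding exon bases were not searched for. The read length is not given in the sources used here. To take out the split between copies, the rows were summed and the whole table was fitted again. AKR1C1 plus AKR1C2, a sum chosen after their opposite changes had been seen, rose from 2594 ± 243 to 3364 ± 319 CPM with no overlap between groups (log2 fold change 0.37 ± 0.100, adjusted p = 0.0168, 1.30-fold). The sum of AKR1C1 to AKR1C4 went from 3328 ± 311 to 4069.9 ± 384 CPM, which missed the threshold (log2 fold change 0.29 ± 0.0998, adjusted p = 0.0512). That sum passed without parental tumour 4 (0.35, adjusted p = 0.0205). A read counted for the wrong one of the summed genes leaves the sum as it is. Exchange of reads with AKR1C3, which shares an identical coding run of 171 bases with AKR1C2, alters the sum of AKR1C1 plus AKR1C2. Reads dropped because they map to several places alter any of these sums. Such reads made up 4.52 to 8.11% per library, and their part in the split between copies was not tested.

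Other rows in the AKR1C cluster gave the following counts. AKR1C8P, annotated as protein-coding in GENCODE 29 despite its pseudogene symbol (chr10:5154140-5185187, -), had 35, 29, 69 and 104 counts in parental tumours and 8, 17, 11 and 31 in knockout tumours. It fell by 1.76 on the log2 scale (adjusted p = 0.0136), although the highest knockout tumour was above the lowest parental one. AKR1C5P was below the filter, with 44 counts over the parental and 8 over the knockout tumours, a parental to knockout ratio of 5.44 (95% counting interval 2.53 to 13.4). AKR1C7P, at 340 and 382 pooled counts, did not pass (log2 fold change 0.19, adjusted p = 0.353). AL391427.1, an antisense transcript inside the AKR1C2 gene that was picked after its values were seen, had 71, 57, 56 and 47 counts in parental tumours and 200, 213, 151 and 247 in knockout tumours. It rose with AKR1C2 (log2 fold change 1.81 ± 0.214, adjusted p = 0.000104). AL391427.1 shares 0 exon bases with AKR1C2, but since the strand setting of the counting is not stated, reads from the introns of AKR1C2 and from this antisense gene cannot be told apart.

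**Figure D3:**
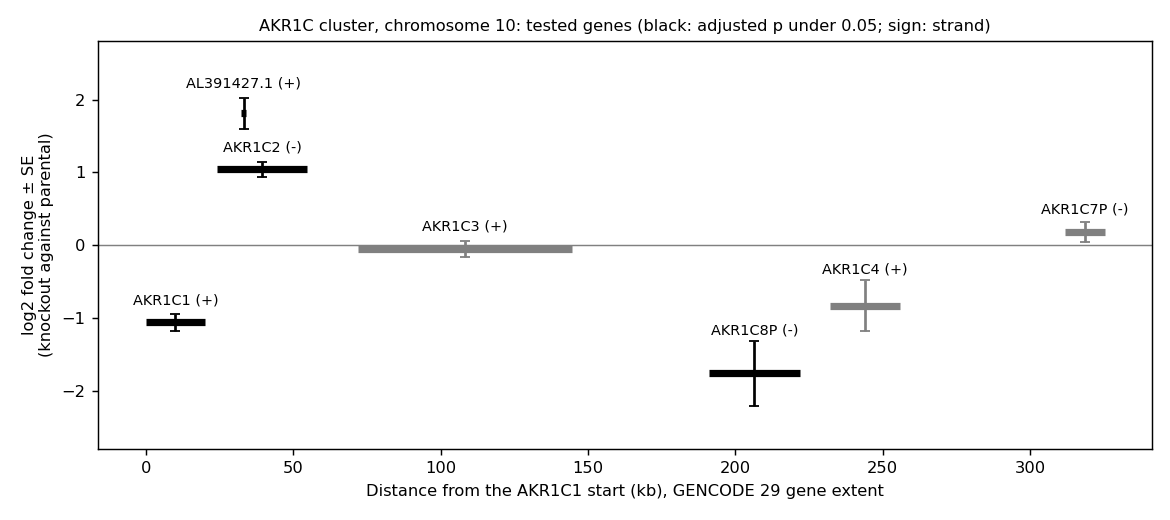
Tested genes of the AKR1C cluster placed by their distance from the AKR1C1 start in kb (x axis; bar length is the annotated gene, the sign its strand) and by log2 fold change, knockout against parental (y axis; error bars are SE). Black marks an adjusted p under 0.05. The neighbours AKR1C1 and AKR1C2 sit at -1.06 and 1.04, and AKR1C3 at -0.05.

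In the AKR1B subfamily, AKR1B10, a reductase of retinal and lipid aldehydes, changed most. It lies at chr7:134527592-134541408 (+). The parental tumours had 661, 513, 847 and 1118 CPM of AKR1B10 and the knockout tumours 254, 489, 384 and 533 CPM. Knockout tumour 4 was slightly above parental tumour 2, the single point of overlap. AKR1B10 was 1.89-fold lower in the knockout, at 415 ± 124 against 785 ± 261 CPM (log2 fold change -0.92 ± 0.256, adjusted p = 0.0205). That call was lost without parental tumour 4 (log2 fold change -0.71, adjusted p = 0.0510) and without knockout tumour 3 (-0.88, adjusted p = 0.0577).

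AKR1B15 is the next gene on the same strand (chr7:134549136-134579875) and a reductase of steroids and retinal. The coding sequences of AKR1B10 (948 bases) and AKR1B15 (1032 bases) match in 886 of 1032 alignment columns (85.9%), where gaps count as differences. AKR1B15 was at 21.2, 20.3, 27.3 and 34.0 CPM in the parental tumours and 17.1, 26.3, 23.7 and 31.0 CPM in the knockout tumours. These ranges overlapped, and the log2 fold change was -0.07 ± 0.198 (adjusted p = 0.836). The ratio of AKR1B10 to AKR1B15 counts was 30.1 ± 3.29 in parental and 16.7 ± 1.58 in knockout tumours. Within groups the counts of the 2 genes moved together. Their deviations from the group means had a Pearson r of 0.98 over 8 tumours that share depth and scaling. Within 2 mismatches, 70.7% of 100-base coding windows of AKR1B10 and 71.7% of AKR1B15 have no copy in another aldo-keto reductase transcript. For 50-base windows the shares are 22.9% and 38.5%. The part of reads assigned to the wrong copy in this r was not tested. Summed, AKR1B10 and AKR1B15 had a log2 fold change of -0.88 ± 0.253 (adjusted p = 0.0236). The call on this sum was lost without parental tumour 3 or 4 or without knockout tumour 1 or 3, where the adjusted p ran from 0.0501 to 0.0641. AKR1B1, the aldose reductase of the polyol pathway (chr7:134442350-134459284, -), was at 154, 141, 178 and 224 CPM in the parental tumours and 149, 133, 135 and 134 CPM in the knockout tumours. Its log2 fold change of -0.34 ± 0.131 missed the threshold (adjusted p = 0.0756), and passed it without parental tumour 2 (-0.43, adjusted p = 0.0205).

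The AKR7A genes encode aldehyde reductases known for acting on aflatoxin dialdehyde and succinic semialdehyde. AKR7A2 (chr1:19303965-19312146, -) was at 38.2, 35.3, 39.9 and 38.5 CPM in the parental tumours and 27.7, 28.1, 30.6 and 33.3 CPM in the knockout tumours. The groups did not overlap, although the gap between them was small. AKR7A2 fell by 0.34 ± 0.0905 on the log2 scale (adjusted p = 0.0156, 1.27-fold lower). The adjusted p was 0.0580 without knockout tumour 1 and 0.0541 without knockout tumour 2. AKR7A3 (chr1:19282558-19289250, -) had 7.96, 4.19, 8.47 and 7.13 CPM in the parental tumours and 5.27, 6.23, 5.17 and 6.20 CPM in the knockout tumours, a difference that did not pass (log2 fold change -0.28 ± 0.206, adjusted p = 0.352). Parental tumour 2 was the lowest of all 8, and without it AKR7A3 passed (-0.46, adjusted p = 0.0378). The coding sequences of AKR7A2 and AKR7A3 match in 85.0% of alignment columns, where gaps count as differences. The sum of both genes had a log2 fold change of -0.33 ± 0.0947 (adjusted p = 0.0225). That call was lost without parental tumour 1 or 3 or knockout tumour 1, 2 or 3, at an adjusted p of 0.0550 to 0.0770.

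AKR1A1, the broad aldehyde reductase that acts on glucuronate and many other carbonyls (chr1:45550543-45570049, +), was at 61.3, 68.4, 75.9 and 69.7 CPM in the parental tumours. In the knockout tumours AKR1A1 was at 55.0, 56.1, 56.9 and 66.7 CPM. Knockout tumour 4 alone reached the parental range. The log2 fold change of AKR1A1 was -0.23 ± 0.0949 (adjusted p = 0.0960), and without knockout tumour 4 it was -0.30 (adjusted p = 0.0370).

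**Figure D4:**
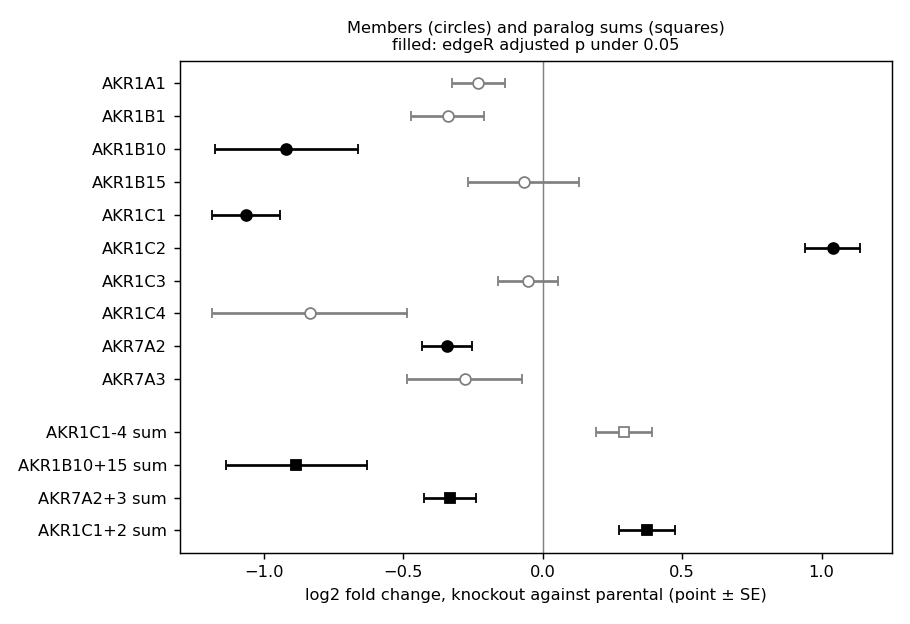
Log2 fold change, knockout against parental, with its SE, for the 10 members (circles) and for sums of near copies fitted as 1 row (squares). Filled symbols have an adjusted p under 0.05. AKR1C1 and AKR1C2 lie on opposite sides of 0 while the sum of both lies at 0.37.

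Levels of different genes were compared per kb, and the order of the 4 most abundant depended on the length used. Per kb of coding sequence, in the parental tumours AKR1C2 (1389 ± 84.9 CPM per kb) and AKR1C1 (1289 ± 172) led, and AKR1B10 (828 ± 275) and AKR1C3 (756 ± 91.4) followed. The ranges over tumours overlapped between each pair of neighbours among these 4 genes. AKR1B1 stood at 184, AKR1A1 at 70.6, AKR7A2 at 35.3, AKR1B15 at 24.9, AKR7A3 at 6.99 and AKR1C4 at 0.868 CPM per kb. In the knockout tumours AKR1C2 led at 2855 ± 313 CPM per kb, and AKR1C3 (729 ± 74.5) came before AKR1C1 (616 ± 80.3) and AKR1B10 (438 ± 131). The ranges of AKR1C2 and AKR1C3 did not overlap there, and those of the next pairs did. The order of the remaining members, from AKR1B1 (145) to AKR1C4 (0.485), was the same as in the parental tumours, with overlap between AKR7A2 and AKR1B15 in both groups and between no other neighbours below AKR1B10. Per kb of all annotated exons, whose length differs far more between these genes, AKR1B10 led in the parental tumours at 450.1 CPM per kb, before AKR1C2 (208), AKR1C3 (162) and AKR1C1 (142). In the knockout tumours AKR1C2 (428) came before AKR1B10 (238), AKR1C3 (156) and AKR1C1 (68.2). The order of the other 6 members was the same by both lengths. Together the members made up 3836 to 5236 CPM per parental tumour and 4377 to 5406 CPM per knockout tumour, ranges that overlapped.

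Promoters were searched for the core of the antioxidant response element, the site of NRF2 with small MAF proteins (letters TGACNNNGC), and for the AP-1 site (TGANTCA), on both strands of the 250 bases before each RefSeq start. The table held 8 of the 10 members, without AKR1B10 and AKR1B15. TGACNNNGC was found 3 times before AKR7A2 and in no other member, beside 10.9% of 35116 promoters of all genes. TGANTCA was found in 0 members, beside 6.57% of all promoters. The upstream windows of AKR1C1 and AKR1C2, which share an unbroken run of 245 bases, hold neither. A match is a description of these letters, and elements farther away were not searched.

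Other genes of the family were examined by their counts. Of 20 relatives and near copies, 9 had no count in any tumour. The potassium channel beta subunits, which share the aldo-keto reductase fold, were lower for KCNAB1 (log2 fold change -1.68, adjusted p = 0.00208) and KCNAB2 (-0.74, adjusted p = 0.0219), and KCNAB3 gave -0.45 with an adjusted p of 0.355. The call on KCNAB2 was lost without parental tumour 3 or knockout tumour 1, 2 or 3 (adjusted p 0.0586 to 0.0640). AKR7L, next to AKR7A3, had 21, 22, 48 and 30 counts in parental and 40, 43, 31 and 80 in knockout tumours (log2 fold change 0.71, adjusted p = 0.150). AKR1D1, the bile acid 5-beta-reductase, had 13 parental and 2 knockout counts, a ratio of 6.43 with a counting interval of 1.46 to 58.7.

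The genes around the clusters were called in both directions. Among 24 tested neighbours, 3 on each side of the AKR1C, AKR1B and AKR7A clusters and of AKR1A1, 7 were higher and 1 lower, a share of 33.3% beside 27.0 percent of all tested genes. Around AKR1C, only TUBAL3, a tubulin-like gene 174 kb away, was called (log2 fold change 2.60, 0.527 to 3.22 CPM, adjusted p = 1.86e-05), while KLF6, MANCR, LINC00705, LINC02561 and AKR1C7P were not. Around AKR1B, SLC35B4 (0.48), AC009275.1 (1.56) and CALD1 (0.59) rose while AKR1B10 fell. Beside AKR7A, NBL1 rose by 0.34 and CAPZB fell by 0.24 on the log2 scale. The CAPZB call was lost without parental tumour 1, 3 or 4 or knockout tumour 1, 2 or 3 (adjusted p 0.0746 to 0.131). Near AKR1A1, CCDC163 (0.67) and MMACHC (0.39) rose, but the CCDC163 call was lost without parental tumour 1, 2 or 4 or knockout tumour 2, 3 or 4 (adjusted p 0.0563 to 0.105), and the MMACHC call without knockout tumour 1 (adjusted p = 0.0564).

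Several members are known targets of NRF2, which KEAP1 holds in check, so this pathway was counted next. Of 9 regulators tested, 1 was higher and 0 were lower, with a median log2 fold change of 0.12. The gene that rose was MAFK, a small MAF partner of NRF2, from 438 ± 103 to 1472 ± 234 CPM (log2 fold change 1.75, adjusted p = 3.61e-05). NFE2L2, which encodes NRF2, had a log2 fold change of 0.20 (adjusted p = 0.208), and KEAP1 0.0031 (adjusted p = 0.986). With both tumours 4 left out, a choice made after seeing the data, NFE2L2 passed the threshold (0.33, adjusted p = 0.0334). Without parental tumour 2 the count of changed regulators was 4, and without knockout tumour 4 it was 2.

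Among 28 NRF2 targets outside the family, 6 rose and 5 fell, with a median of -0.05. The drug exporters ABCC2 (log2 fold change 1.01) and ABCC1 (0.80) and the thioredoxin reductase TXNRD1 (0.74, adjusted p = 0.000103) rose, as AKR1C2 did. The epoxide hydrolase EPHX1 (-1.51) and the ferritin light chain FTL (-0.60) fell, as AKR1C1 and AKR1B10 did. The FTL call was lost without parental tumour 1 or 4 or knockout tumour 1, 2 or 3 (adjusted p 0.05003 to 0.0721). The quinone reductase NQO1 went from 630 ± 154 to 583 ± 31.0 CPM (log2 fold change -0.11, adjusted p = 0.635), and the glutathione synthesis gene GCLM gave -0.016 (adjusted p = 0.959). Members and other targets of this pathway thus held genes called in both directions.

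Enzymes that share substrates with the members were counted by function. Of the short-chain carbonyl reductases, 8 of 9 were tested, with 2 higher and 1 lower. DHRS7 rose by 0.56 and SPR by 0.28 on the log2 scale, and CBR3 fell from 53.8 ± 18.8 to 24.0 ± 7.43 CPM (log2 fold change -1.17, adjusted p = 0.00670). The SPR call was lost without parental tumour 2, 3 or 4 or knockout tumour 1, 3 or 4 (adjusted p 0.0762 to 0.116). CBR1, the main cytosolic carbonyl reductase, had a log2 fold change of -0.41 at an adjusted p of 0.0505, and passed the threshold with DESeq2 (adjusted p = 0.0223), without parental tumour 2 (-0.53, adjusted p = 0.00638) or knockout tumour 4 (-0.50, adjusted p = 0.0313).

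Of 9 aldehyde dehydrogenases, which oxidise the aldehydes that aldo-keto reductases reduce, 2 were higher and 1 lower. ALDH2 rose by 0.50 and ALDH3B1 by 0.44 on the log2 scale, the latter with an adjusted p of 0.0529 without knockout tumour 4. ALDH1A1, which makes retinoic acid from retinal, was at 187, 122, 295 and 330.2 CPM in the parental tumours and 34.4, 44.0, 38.0 and 49.6 CPM in the knockout tumours. It fell by 2.49 on the log2 scale (adjusted p = 5.88e-05), or 5.63-fold. ALDH3A1, at 1009.8 ± 83.8 and 851 ± 184 CPM, had a log2 fold change of -0.25 (adjusted p = 0.226), and passed without knockout tumour 4 (-0.39, adjusted p = 0.0369).

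Steroids are substrates of AKR1C1 to AKR1C4. In the list of steroid enzymes and receptors, 19 of 28 genes were tested, with 6 higher, 5 lower and a median of 0.11. The steroid sulfatase STS (log2 fold change -1.78, adjusted p = 2.90e-05) and the 5-alpha-reductase SRD5A1 (-0.58) fell. The sulfotransferase SULT2B1 rose by 1.51, aromatase, CYP19A1, by 2.37 and SRD5A2 by 1.44 on the log2 scale, the last pair from levels of 0.222 and 1.29 CPM.

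Retinal is a substrate of AKR1B10. Of 22 retinoid genes, 15 were tested, with 4 higher, 5 lower and a median of 0.08. RDH13 rose by 0.80 and the retinoic acid hydroxylase CYP26B1 by 1.14 on the log2 scale. The retinal reductase DHRS3 fell by 1.52 and the retinoic acid carrier CRABP2 by 2.82. ADH7, a retinol dehydrogenase, had 16, 14, 52 and 54 counts in the parental tumours and 0 in all 4 knockout tumours. Against a limit of 3 counts over the group it was at least 44.8-fold lower, and with ADH7 at that bound the list's median stayed at 0.08.

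Prostaglandins are reduced by AKR1C3 and AKR1B1. Of 18 prostaglandin genes, 11 were tested, with 5 higher, 3 lower and a median of 0.44. The synthases PTGS1 (2.23) and PTGES (0.86), the reductase PTGR1 (0.83) and the dehydrogenase HPGD (0.44) rose on the log2 scale. Thromboxane synthase, TBXAS1 (-3.42), the receptor PTGER4 (-1.66) and the transporter SLCO2A1 (-1.02) fell. The SLCO2A1 call was lost without parental tumour 3 or 4 or knockout tumour 1, 2 or 3 (adjusted p 0.0604 to 0.0936). In the polyol and fructose pathway, which begins with AKR1B1, 4 of 5 genes were tested, with a median of -0.54, and SORD (-0.26, adjusted p = 0.0494) and KHK (-0.64, adjusted p = 0.0272) were lower. Neither call held in every set of 7 tumours. SORD lost its call without any 1 tumour except parental 3 (adjusted p 0.0587 to 0.119), and KHK without parental tumour 1 or 4 or knockout tumour 1, 2 or 3 (adjusted p 0.0623 to 0.0800).

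Over all these companion lists, 103 of 128 genes were tested, with 26 higher and 22 lower, a share of 46.6% beside 27.0 percent of all tested genes.

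**Figure D5:**
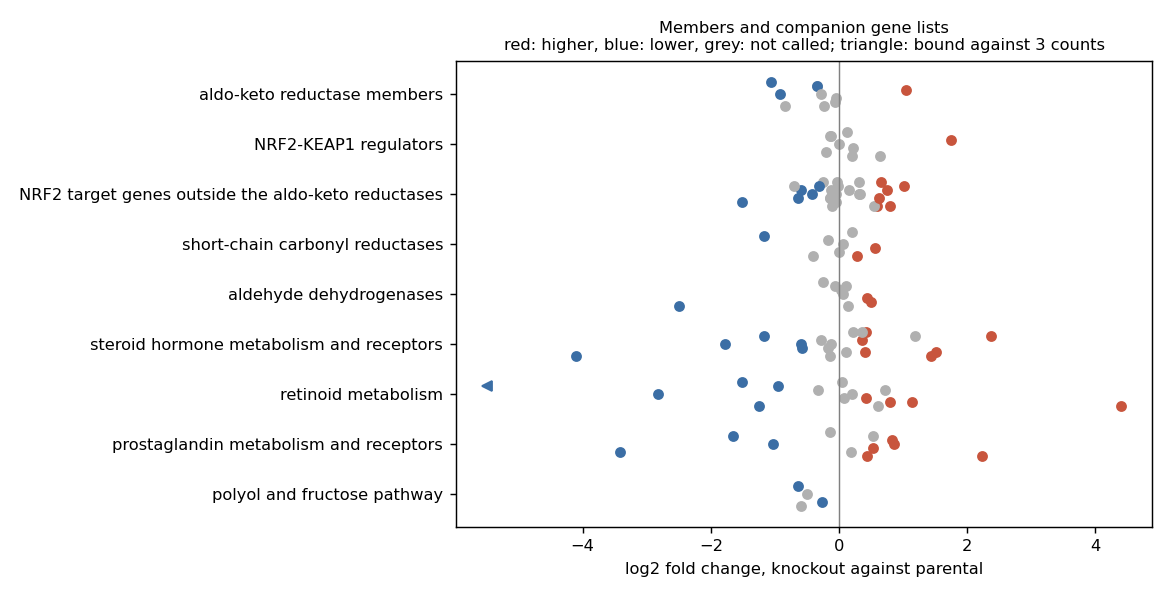
Log2 fold change, knockout against parental, of the members (top row) and of the tested genes of each companion list, 1 point per gene, with vertical spread only to separate points. Red and blue mark genes called higher and lower, grey those not called, and the triangle is ADH7 at its bound. Each list with more than 4 tested genes, apart from the regulators, has genes called on both sides of 0.

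The genes whose log2 CPM followed the largest member of each subfamily most closely over the 8 tumours were taken from 13040 genes. Since both groups enter, likeness includes the difference between groups, and it says nothing of function. For AKR1C2 they were CLU (Pearson r 0.993), ISCA2 (0.990) and EGFL7 (0.989), all higher in knockout tumours. For AKR1B10 they were ZNF584 (0.981), CSTA (0.980) and CABYR (0.977), of which CSTA was called lower. For AKR7A2 they were ZNHIT2 (0.994), FIS1 (0.990) and SMAGP (0.989), and for AKR1A1 TSPO (0.967), DGUOK (0.966) and BLCAP (0.959).

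Marker genes were used to check the labelled tissue. The tumours are xenografts counted on the human genome, and any separation of host reads is not given. Sums for cell types other than lung epithelium are therefore not read as the content of host cells. The 9 lung epithelial markers summed to 5748 to 6919 CPM in parental and 4628 to 6228 CPM in knockout tumours (means 6444 and 5509.8), with NKX2-1 at 0 in all 8 libraries. Of the 7 tested, KRT19 (-1.01) and KRT7 (-0.71) were lower in knockout tumours, while EPCAM (-0.23), CDH1 (0.08), KRT18 (0.11), KRT8 (0.16) and NAPSA (0.23) did not pass. Hepatocyte markers, of interest since AKR1C4 and AKR1D1 are liver genes, summed to 0.620 to 0.758 and 0.513 to 1.35 CPM, with TTR and F9 at 0. Leukocyte markers ranged from 7.13 to 66.1 and from 9.83 to 26.6 CPM (means 35.5 and 17.7), fibroblast markers from 179 to 607 and from 343 to 603 CPM, and endothelial markers from 7.24 to 18.0 and from 8.67 to 15.2 CPM. Skeletal muscle markers ranged from 0.134 to 32.0 and from 0.0974 to 14.4 CPM, and adipocyte markers, with ADIPOQ at 0, from 0.297 to 0.624 and from 0.466 to 1.27 CPM. The exact two-sided permutation p of these 7 sums ran from 0.0857 (lung epithelial) to 0.8, but 4 tumours against 4 cannot give a p below 0.0286, too high for 1 list alone to pass after adjustment over 7, so these tests do not show that the groups were alike. Among single genes of these other lists, LUM (5.00) was higher and VWF (-2.37) lower on the log2 scale. The other tested fibroblast markers, COL1A1 (0.34), COL1A2 (0.60), COL3A1 (-0.16) and POSTN (0.58), did not pass. The other tested endothelial marker, PECAM1 (0.30), did not pass either. LUM and VWF are therefore not read as measures of these cell types. The part of LUM and VWF in the members' values was not tested.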

How the data were processed

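The authors deposited raw read counts per gene for each of the 8 tumours. Per the submitters' processing notes, reads were aligned with TopHat2 2.1.1 and counted with HTSeq 0.11.0 on hg38; the annotation, the counting options, strand, read length and any separation of mouse reads are not given in the sources used here. The 5 summary lines were left out. No 2 libraries agreed within sampling noise (chi-square per degree of freedom at least 8.21). Counts were fitted with edgeR 4.0.16 in R 4.3.3 (filterByExpr with a minimum count of 10 and a total of 15, TMM scaling, quasi-likelihood F-test, no covariate, Benjamini-Hochberg adjustment), and a gene was called at an adjusted p under 0.05. Nothing in the labels says that the tumours came from separate animals, so p-values measure the spread between these samples. Sums of near copies replaced their rows before the fit. The tests were checked on simulated counts with known changes, where smaller changes were recovered less often and DESeq2 had a larger share of false calls than edgeR. Marker sums were compared by exact two-sided permutation (smallest p 0.0286). Intervals are exact at 95% and cover counting error only. Coding identity, windows and motifs came from GENCODE 29 and RefSeq with Biopython 1.88. The alternatives were DESeq2 1.42.0, limma-voom (limma 3.58.1), 3 other scalings, 2 other filters, a replicate block, library sizes without the members, and leaving out tumours. The members and gene lists were chosen with earlier results of these data known. Genes named are the members, their relatives, 3 neighbours on each side of a cluster, a fixed set, up to 3 changed genes of smallest p per direction and list, and the 3 most alike genes per subfamily. Some genes that this rule names are not reported here.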

Additional observations from a re-analysis of the deposited data

Results flagged for a closer look

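In 32 sets of 4 tumours, 1 value stood apart from the other 3 in 2 sets, by a gap above Dixon's 95% limit for the set's range. Chance alone gives about 1 in 20 such sets. The sets were each member, each paralog sum except AKR1C1 plus AKR1C2, and the AKR1C total, in each group. The ratios of AKR1C1 to AKR1C2 and of AKR1B10 to AKR1B15 were checked as well. For AKR1A1, knockout tumour 4 had 66.7 CPM, with the next at 56.9 and the lowest at 55.0 CPM. For AKR1B1, knockout tumour 1 had 148.9 CPM, with the next at 134.7 and the lowest at 133.3 CPM. The 2 values come from different tumours.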

How the results depend on the processing

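The calls on AKR1C1, AKR1C2 and their sum were kept in all 18 alternatives. Over all genes, 3595 (at least 50 counts in 4 libraries) to 4902 (no filter) were called with all 8 tumours, and 54.1% of calls were higher under upper-quartile scaling against 47.9%. AKR1B1 passed the threshold with DESeq2 (-0.35) and with no filter (-0.37). The sum of AKR1C1 to AKR1C4 passed it with DESeq2 (0.28), limma-voom (0.29), upper-quartile scaling (0.33), the filter of 50 counts (0.31), the replicate block (0.29) and both tumours 4 left out (0.29), a choice made after seeing the data, under which AKR1A1 also passed (-0.29). Changed NRF2-KEAP1 regulators numbered 2 with DESeq2, no filter and the block and 3 without both tumours 4; changed polyol genes numbered 1 with limma-voom, upper-quartile scaling, the filter of 50 counts and the block and 0 without both tumours 4. Deviations of same-numbered tumours from their group means had correlations of -0.0431, -0.0217, -0.187 and 0.0863. No parental tumour correlated best with the knockout tumour of its own number. These values gave no sign of pairing by number, but with 4 tumours per group they cannot exclude it. With the replicate block 3871 genes and 4 members were called.

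Leaving out 1 tumour at a time gave 3501 to 4721 changed genes in all, 3 to 7 changed members, 1 to 4 changed regulators and 0 to 2 changed polyol genes. The log2 fold changes then ranged from -0.30 to -0.18 for AKR1A1, -0.43 to -0.20 for AKR1B1, -1.08 to -0.71 for AKR1B10, -1.05 to -0.55 for AKR1C4, -0.40 to -0.30 for AKR7A2 and -0.46 to -0.17 for AKR7A3. They ranged from 0.23 to 0.35 for the AKR1C1 to AKR1C4 sum, -1.04 to -0.67 for AKR1B10 with AKR1B15 and -0.39 to -0.29 for AKR7A2 with AKR7A3. AKR1B15 (-0.20 to 0.0903) and AKR1C3 (-0.12 to 0.0295), neither called, changed sign. So did NQO1 (-0.25 to 0.0325), GCLM (-0.16 to 0.14), KEAP1 (-0.0570 to 0.0367) and the differences in summed CPM of endothelial (-2.07 to 1.76) and skeletal muscle markers (-9.16 to 1.85). With all tumours, GCLM was at 0.025 with limma-voom, 0.024 with upper-quartile scaling, 0.0035 with the filter of 50 counts, 0.023 with the block and 0.15 without both tumours 4, where NQO1 was at 0.0014. KEAP1 was at -0.0053 with DESeq2, -0.0052 with its size factors in edgeR, -0.016 with library totals and -0.021 with no filter. With all tumours, SORD lost its call under 5 alternatives, CAPZB under 4, SPR under 2, and SLCO2A1, MMACHC, NBL1, KCNAB2 and CCDC163 under 1 each, while CBR1 passed under 5. The cause of these shifts was not tested. At 8 to 29 counts per tumour, depth limits AKR1C4 most among the members.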

Other observations

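Tumours labelled replicate 4 held the highest value of many members in both groups. Parental tumour 4 was highest for 5 of 10 members and for 23 of 28 NRF2 targets outside the family. Knockout tumour 4 was highest for 8 of 10 members and 18 of 28 targets. The same count was not made over all tested genes, so these shares are not read as a trait of these genes. With both tumours 4 left out, 4010 genes were called in all. The members changed were 5, and AKR1C1, AKR1C2, AKR1B10 and AKR7A2 were among them. After removal of the group means, AKR1B15 followed AKR1C3 (Pearson r 0.88), AKR1B10 followed AKR1C3 (0.80) and AKR1C4 followed AKR7A3 (0.85), whereas AKR1C1 and AKR1C2 had an r of 0.32; these are descriptions over 8 tumours that share depth and scaling.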
